A study of Mus musculus with 4 samples.

Results

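The ligands and receptors that microglia are known to depend on were followed through every cell class of the dissociated mouse brain: the receptor Csf1r with its ligands Csf1 and Il34, the ligand Tgfb1 with the receptor subunits Tgfbr1 and Tgfbr2, and the chemokine receptor Cx3cr1 with its ligand Cx3cl1. The genes were chosen by symbol, and each of the 8 matched 1 of the 31053 genes counted. Brains of 4 mice (C57BL/6J males, P90, taken whole) gave 1 library each, made with droplet-based single-cell RNA sequencing (10x 3′ version 2 chemistry) after enzymatic digestion at 37 °C. In 2 animals no inhibitors were used. In the other 2 animals the transcription inhibitors actinomycin D and triptolide were present during perfusion, dissection and digestion, and the translation inhibitor anisomycin during dissection and digestion. All 4 libraries carried the same batch label, no sort preceded loading, and meninges were removed as far as possible.

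CSF1R is a receptor tyrosine kinase of the mononuclear phagocyte lineage, and microglia die when it is blocked. Its ligands CSF1 and IL-34 share the receptor but come from different cells. TGF-β1 is made as a latent complex that must be activated next to the responding cell, and it signals through a heteromer of the type 1 subunit TGFBR1 and the type 2 subunit TGFBR2 to SMAD proteins. Microglia need it for their homeostatic gene program. CX3CL1, or fractalkine, is held on the membrane of neurons and vessels until it is shed, and its receptor CX3CR1 is a G protein-coupled receptor used throughout the field to label microglia.

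On GRCm38 the CSF1R genes lie at chr18:61100598-61132149 (Csf1r, plus strand), chr3:107741048-107760469 (Csf1, minus) and chr8:110741829-110805924 (Il34, minus). The TGF-β genes lie at chr7:25687002-25705077 (Tgfb1, plus), chr4:47353222-47414931 (Tgfbr1, plus) and chr9:116084293-116175360 (Tgfbr2, minus). Cx3cr1 lies at chr9:119901616-120069879 on the minus strand and Cx3cl1 at chr8:94772009-94782427 on the plus strand. Counts are per gene.

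A total of 12487 barcodes were deposited and 9811 cells were kept, with 4496491 to 6029670 counts of unique molecular identifiers (UMIs, each 1 captured RNA molecule) per animal. The cells fell into 27 clusters, which were named from marker genes with none of the 8 ligands and receptors among them or among the clustering genes. A total of 8 classes had at least 20 cells in each animal and were tested. They were microglia-like (3233 cells, 33.0% of all), oligodendrocyte-like (894), astrocyte-like (1948), neuron-like (308), endothelial-like (1677), mural-like (339), ependymal-like (188) and choroid plexus-like cells (620). Smaller classes, among them fibroblast-like (128) and macrophage/monocyte-like (66), are described only. Each microglia-like cluster passed with 10 of 10 microglia markers. The macrophage/monocyte-like cluster passed with 7 of 10, led by Pf4 and Mrc1. Those it did not pass, Ccr2, Plac8 and Ly6c2, are the monocyte genes of that list. The name is kept below, but its values are those of macrophage-like cells.

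Levels are given as CPM, the UMIs of a gene per 1000000 UMIs of all genes, summed over the cells of a class in an animal. They depend on each transcript's 3′ capture and are compared between classes for the same gene, never between genes. Class differences are described without a test. RNA that floats free in the suspension also reaches cells that do not make it. Its size was read from the marker genes of the class with the highest level: oligodendrocyte-like cells, for example, held microglia markers at 1.01% of the microglia-like level (mean of 4 animals), so a receptor at about that share is at the level that free RNA gives.

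The CSF1R ligands came from different classes. Csf1 was low in every tested class and spread over several, with 407 UMIs in all cells. Oligodendrocyte-like cells had 36.3 and 40.9 CPM in the animals without inhibitors and 53.0 and 28.9 CPM in those with them. Astrocyte-like cells had 27.6, 28.5, 29.6 and 26.4 CPM in the same order. The ranges of these 2 classes overlapped, as did those of mural-like (21.0 ± 7.96 CPM, SD, n = 4) and endothelial-like cells (19.5 ± 7.29 CPM). Astrocyte-like cells stood at 73.2% of the oligodendrocyte-like level where oligodendrocyte markers stood at 1.89%, and it was above the markers in 4 of 4 animals.

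Within the oligodendrocyte-like class, Csf1 differed between clusters. The cluster led by Klk6, Anln and Hapln2, genes known from mature oligodendrocytes of white matter tracts, had 53.7 and 66.5 CPM without inhibitors and 92.3 and 54.4 CPM with them. The cluster led by Opalin had 28.9, 35, 37.2 and 23.7 CPM. All 4 values of the first lay above all 4 of the second. In pooled cells the exact 95% Poisson intervals, which cover counting error only, were 48.5 to 90.3 and 23.3 to 38.6 CPM. The small fibroblast-like cluster led by Dcn held 7 Csf1 UMIs in 33 cells, 107 CPM with an interval of 43.1 to 221.

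Among the tested classes Il34 was highest in mural-like cells. Mural-like cells had 122 and 132 CPM without inhibitors and 150 and 94.7 CPM with them, and they gave 63.1% ± 5.76 (SD, n = 4) of its 195 UMIs. Neuron-like cells followed with 26.6, 24.8, 19.3 and 59.0 CPM, below every mural-like value. In neuron-like cells Il34 stood at 28.9% of the mural-like level and mural markers at 0.906%. The mural-like share of the UMIs depends on which cells the suspension held. Neuron-like cells were few in it and shallow, with a median of 906 UMIs against 2042 in mural-like cells. The other tested classes had means of 3.63 CPM or less, and the 3233 microglia-like cells had a mean of 1.55 ± 0.505 CPM.

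The mural-like class held both kinds of wall cell, and Il34 separated them. The cluster led by Vtn, Kcnj8 and Higd1b, genes known from pericytes, had 412 and 346 CPM without inhibitors and 499 and 361 CPM with them. The cluster led by Acta2, Tagln and Myh11, contractile genes of smooth muscle, had 80.7, 90.8, 74.4 and 62.8 CPM. The groups of 4 values were far apart. The Acta2-led cluster also carried 7 of 8 endothelial markers, and their part in its values was not tested. The Vtn-led cluster had 57 Il34 UMIs in 130 cells and 0 of Csf1, for which the interval allows up to 26.1 CPM.

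Il34 was also high among the fibroblast-like cells. The Dcn-led cluster, which also expressed Slc6a13 and Lum, had 336 and 124 CPM without inhibitors and 491 and 413 CPM with them, from 23 UMIs in 33 cells. The Nov-led fibroblast-like cluster had 2 UMIs in 95 cells, 3.59 CPM with an interval of 0.435 to 13. The pooled interval of the Dcn-led cluster, 223 to 528 CPM, overlapped that of the Vtn-led mural-like cluster, 305 to 522 CPM.

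The receptor Csf1r was highest in microglia-like and macrophage/monocyte-like cells. Microglia-like cells had 2029 and 2119 CPM without inhibitors and 2145 and 2003 CPM with them, and they gave 94.1% ± 1.59 of its UMIs. Macrophage/monocyte-like cells had 2327, 1575, 1376 and 1692 CPM, 84.4% of the microglia-like level on average, where microglia markers in them stood at 19.2%. Among the other tested classes neuron-like cells had the highest mean, 83.9 ± 44.8 CPM, and there Csf1r at 4.01% of the microglia-like level was above the microglia markers, at 3.15%, in 3 of 4 animals. The 98 unnamed cells, 97 of them in a cluster led by Cd74 and S100a8, had 383 and 511 CPM without inhibitors and 343 and 209 CPM with them. That is 17.4% of the microglia-like level against 5.58% for the markers, above them in 4 of 4 animals.

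**Figure D1:**
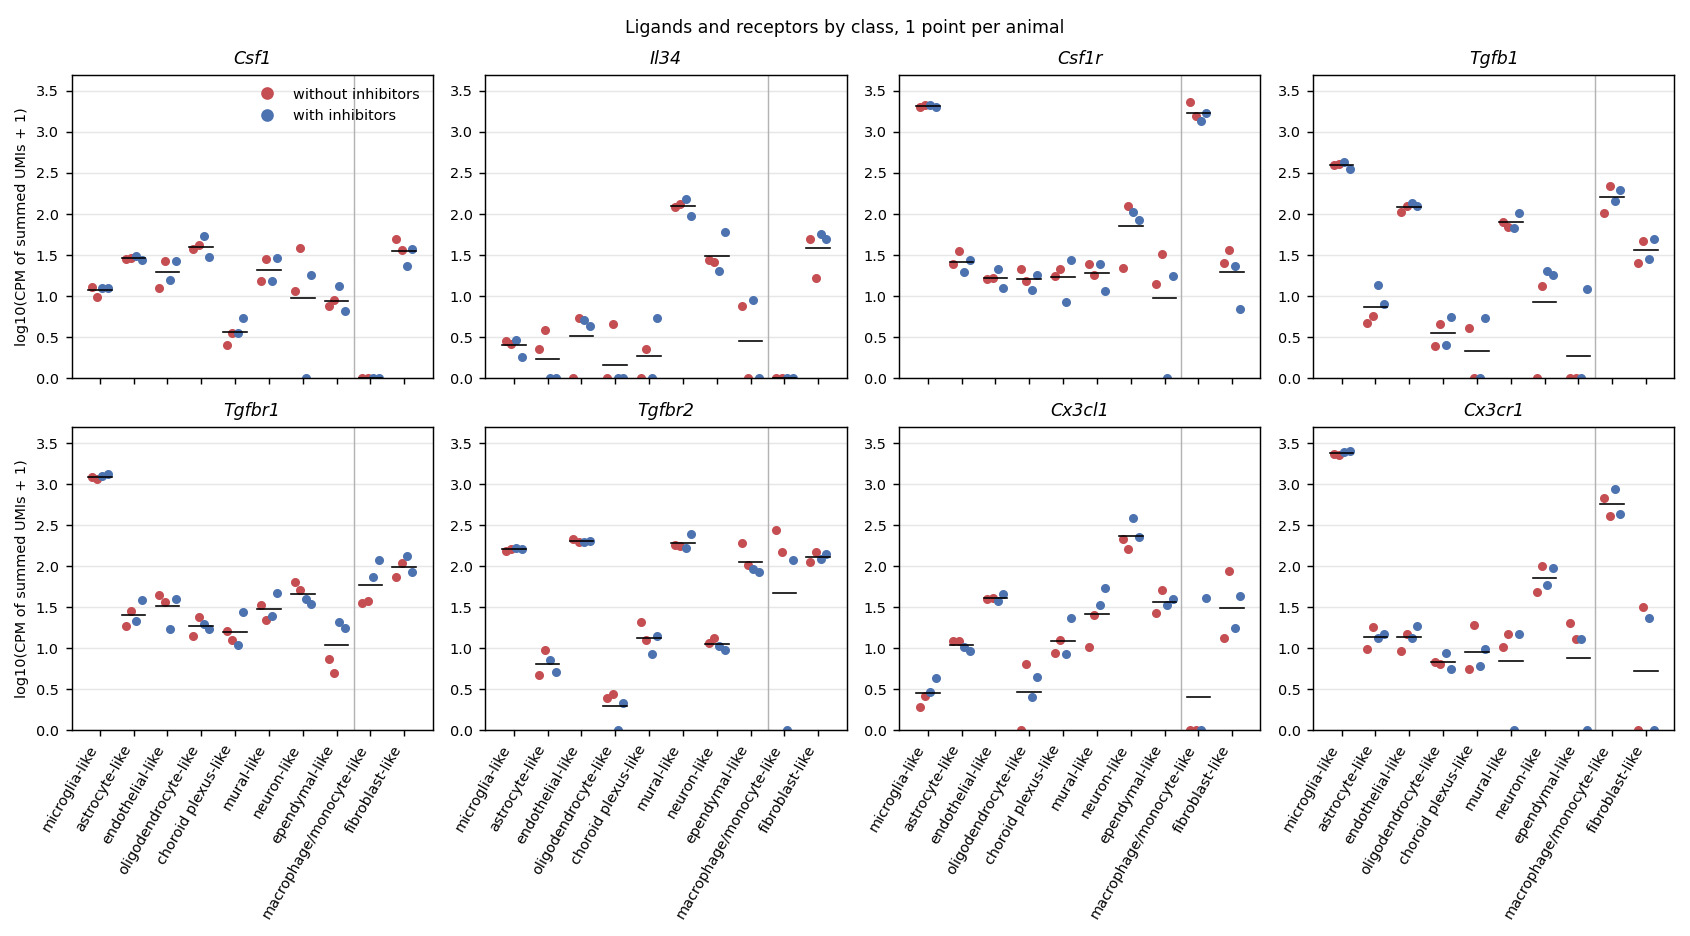
Level of each ligand and receptor as log10(CPM + 1) of summed UMIs (vertical axis) by class (horizontal axis), with 1 point per animal, red without and blue with inhibitors, and a bar at the mean of the 4 log values. The 2 classes right of the grey line had under 20 cells in some animal. Csf1r, Tgfbr1 and Cx3cr1 peak in microglia-like cells, Il34 in mural-like and Cx3cl1 in neuron-like cells, while the means of Tgfbr2 in endothelial-like, mural-like and microglia-like cells lie close together.

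**Figure D2:**
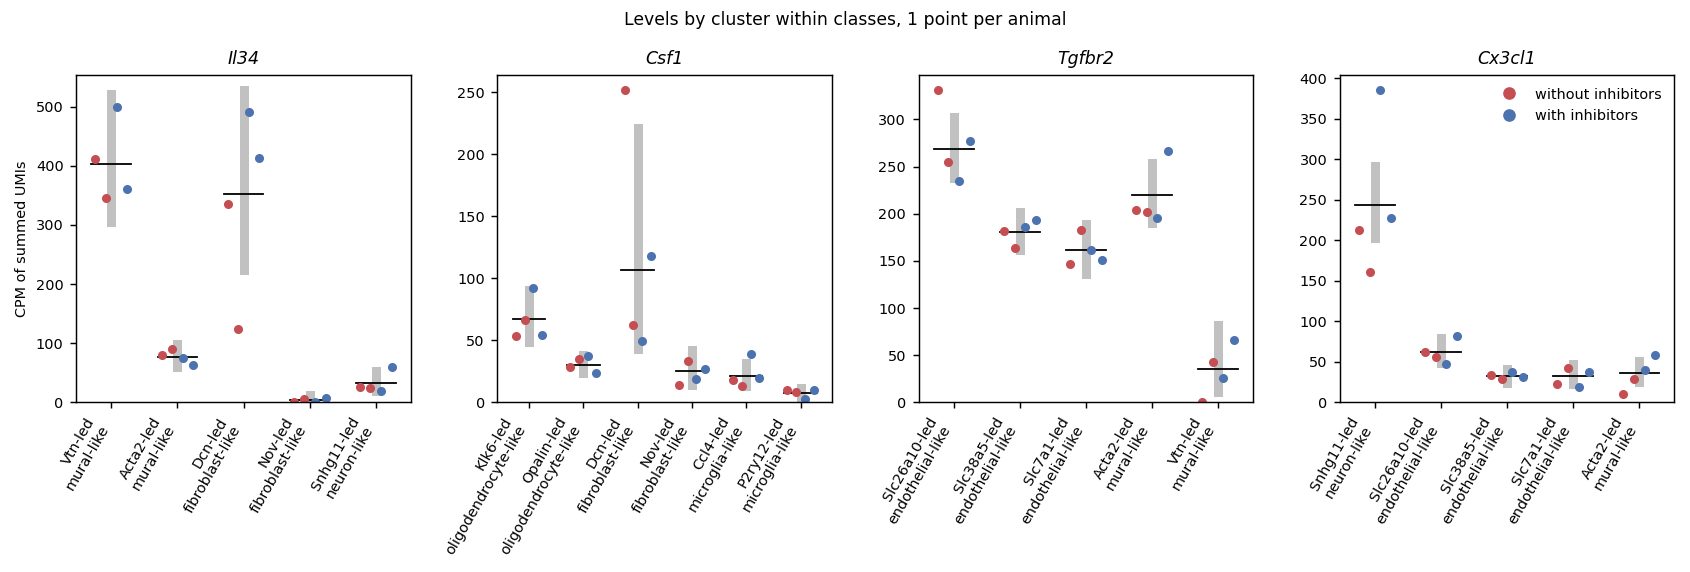
CPM of summed UMIs (vertical axes) of Il34, Csf1, Tgfbr2 and Cx3cl1 in single clusters, named by leading gene and class. Points are animals, red without and blue with inhibitors, black bars the pooled level, grey bars its exact 95% Poisson interval. Il34 reaches 403 CPM in the Vtn-led mural-like cluster against 77.0 in the Acta2-led one, and Cx3cl1 62.6 CPM in the Slc26a10-led endothelial-like cluster against 32.2 and 32.8 in the others.

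Tgfb1 was highest in the cells that also carried most of its type 1 receptor. Microglia-like cells had 394 and 408 CPM without inhibitors and 425 and 349 CPM with them, and gave 73.1% ± 5.80 of all Tgfb1 UMIs. Endothelial-like cells had 105, 123, 137 and 126 CPM and gave 18.0% ± 4.89. The order microglia-like, endothelial-like, mural-like (80.0, 69.3, 65.8 and 102 CPM) held without overlap between neighbours. In endothelial-like cells Tgfb1 stood at 31.2% of the microglia-like level and microglia markers at 0.988%. Astrocyte-like cells, at 1.76% against 1.47% for the markers, did not stand clear of free RNA, and oligodendrocyte-like cells, at 0.732% against 1.01%, did not either. Tgfb1 was at a similar level in all 3 endothelial-like clusters (122, 127 and 119 CPM pooled).

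The type 1 subunit Tgfbr1 separated microglia-like from macrophage/monocyte-like cells more than Csf1r, Cx3cr1 or Tgfb1 did. Microglia-like cells had 1215 and 1159 CPM without inhibitors and 1243 and 1333 CPM with them, 91.7% ± 1.24 of its UMIs. The macrophage/monocyte-like cells had 34.2, 36.6, 72.4 and 118 CPM, from 6 UMIs in 66 cells. That is 5.17% of the microglia-like level, under the 19.2% at which the 10 microglia markers stood in the same cells, and it was under the markers in 4 of 4 animals. Csf1r, at 84.4%, and Tgfb1, at 42.6%, were above the markers in 4 of 4 animals. So was Cx3cr1 at 25%, but its range over animals, 17.0% to 35.8%, overlapped theirs, 15% to 24.2%. With 10 to 19 cells per animal this class was under the limit of 20 and was not tested.

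**Figure D3:**
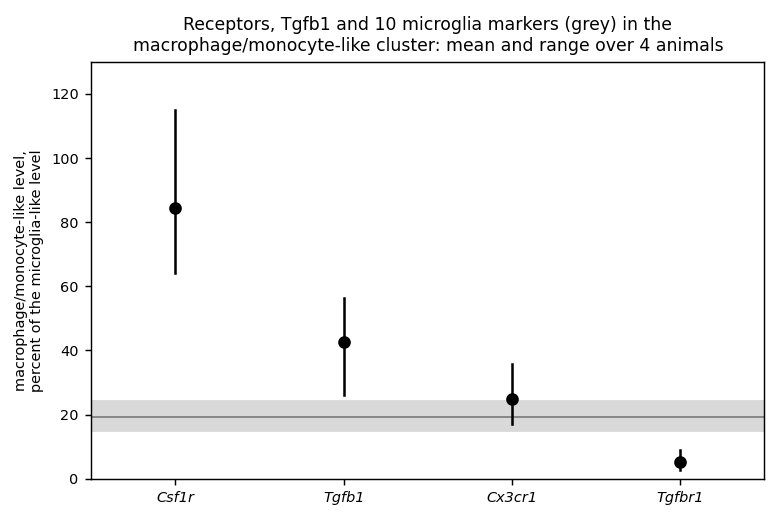
Level in the macrophage/monocyte-like cluster as a percent of the microglia-like level (vertical axis) for Csf1r, Tgfb1, Cx3cr1 and Tgfbr1; points are means and lines the range over 4 animals. The grey line and band are the mean (19.2%) and range (15% to 24.2%) of the 10 microglia markers, and Tgfbr1, at 5.17%, is the one gene of the 4 below the band.

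In other classes Tgfbr1 was lower than in microglia-like cells, but in several its share was above that of the microglia markers in 4 of 4 animals. The unnamed cells had 292, 204, 262 and 104 CPM, 17.6% of the microglia-like level against 5.58% for the markers. Endothelial-like cells had 43.2 and 36.0 CPM without inhibitors and 16.2 and 38.3 CPM with them, 2.71% of the microglia-like level against 0.988% for the markers and above them in 4 of 4 animals. The same held in 4 of 4 animals for mural-like cells (2.45% against 0.926%), fibroblast-like cells (8.10% against 2.01%) and neural progenitor-like cells (4.68% against 1.17%). It also held for astrocyte-like (2.07% against 1.47%), choroid plexus-like (1.26% against 0.793%), oligodendrocyte precursor-like (4.60% against 1.54%) and erythrocyte-like cells (3.19% against 2.30%). Per animal, oligodendrocyte precursor-like cells held only 1, 2, 1 and 7 Tgfbr1 UMIs and erythrocyte-like cells 2, 18, 1 and 1. The animals with 7 and 18 also had the highest Csf1r (208 and 170 CPM) and Cx3cr1 (229 and 130 CPM) in these classes. The part of microglia RNA in these values was not tested. A single gene can lie off the marker share: Cx3cr1 stood at 0.547% in astrocyte-like cells, where the markers stood at 1.47%. Small gaps from the markers therefore do not tell a class's own Tgfbr1 from free RNA.

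The type 2 subunit Tgfbr2 was shared between microglia-like cells and the vessel classes. Endothelial-like cells had 211 and 197 CPM without inhibitors and 195 and 202 CPM with them. Microglia-like cells had 152, 159, 165 and 163 CPM, below every endothelial-like value by a small margin. Mural-like cells (179, 177, 165 and 246 CPM) overlapped with both, and ependymal-like cells (188, 102, 92.6 and 83.8 CPM) with microglia-like cells. Astrocyte-like cells had 5.67 ± 2.20 CPM and oligodendrocyte-like cells 1.10 ± 0.774 CPM (SD, n = 4). Among the tested classes these had the highest means of Csf1.

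Clusters within the vessel classes again differed. The endothelial-like cluster led by Slc26a10, with Gkn3, Edn1, Sox17 and Sema3g, genes known from arteries, had 331, 255, 235 and 277 CPM of Tgfbr2, while the Slc38a5-led and Slc7a1-led clusters had pooled levels of 181 and 161 CPM. In mural-like cells the Acta2-led cluster had 220 CPM (interval 190 to 254) and the Vtn-led cluster 35.3 (11.5 to 82.4), the reverse of Il34. Endothelial markers stood at 49.5% of the endothelial-like level in mural-like cells as a whole, and their part in the mural-like Tgfbr2 level was not tested.

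Since Tgfbr1 joins the receptors that peak in microglia-like cells, the bases before its annotated start are shown. In RefSeq (GRCm38.p6) the first of its 2 promoter windows, chr4:47352972-47353221 on the plus strand, reads as follows, with CG dinucleotides in capitals.
Tgfbr1: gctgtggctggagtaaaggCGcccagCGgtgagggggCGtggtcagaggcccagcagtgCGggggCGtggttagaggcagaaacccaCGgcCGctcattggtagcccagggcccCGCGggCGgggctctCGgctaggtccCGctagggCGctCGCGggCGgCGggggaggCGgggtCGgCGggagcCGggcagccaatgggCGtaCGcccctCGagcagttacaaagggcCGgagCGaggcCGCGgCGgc
This window of 250 bases held 29 CG dinucleotides, and 94.1% of 32851 promoter windows of the same length held as many or fewer (median 6.00, quartiles 2.00 and 16.0). The windows of Tgfb1 (21), Cx3cl1 (14), Tgfbr2 (12) and Csf1 (10) lay above that median too. Cx3cr1 had 4, and the second window of Tgfbr1 3. The letters GAGGAA, the core of the PU.1 box, were searched on both strands. They were in 23.3% of all windows, once in the second window of Tgfbr1, once in that of Tgfbr2 and at 2 places in that of Cx3cl1. They were not in the printed window of Tgfbr1 or in those of Cx3cr1, Tgfb1 and Csf1. All 250 bases of the Cx3cr1 window and 171 of the Cx3cl1 window overlap annotated exons.

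Among the tested classes Cx3cl1 had its highest means in neuron-like, endothelial-like and ependymal-like cells. Neuron-like cells had 213 and 161 CPM without inhibitors and 386 and 228 CPM with them, above every value of every other tested class. Endothelial-like cells, with 38.3, 40.4, 36.5 and 45.0 CPM, and ependymal-like cells, with 25.9, 50.9, 32.2 and 39.1 CPM, overlapped. Because endothelial-like cells were many and neuron-like cells few in the suspension, they gave similar parts of the 444 UMIs, 32.8% ± 7.29 and 29.1% ± 16.5. In endothelial-like cells Cx3cl1 stood at 18.1% of the neuron-like level and neuron markers at 0.698%. Fibroblast-like cells, which were not tested, had 12.2 and 87.2 CPM without inhibitors and 16.6 and 42.3 CPM with them. There Cx3cl1 stood at 20.7% and neuron markers at 0.935%, with Cx3cl1 above the markers in 4 of 4 animals.

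Among the endothelial-like clusters, Cx3cl1 was highest in the one with arterial genes. The Slc26a10-led cluster had 62.4, 55.4, 47.9 and 82.0 CPM, and its pooled interval of 48.2 to 79.9 did not overlap those of the Slc38a5-led (24.3 to 41.8) and Slc7a1-led (22.1 to 46.8) clusters. The Acta2-led mural-like cluster had a pooled level of 36.2 CPM, and its interval of 24.6 to 51.3 overlapped that of the Slc26a10-led cluster. The Vtn-led mural-like cluster, highest for Il34, had 0 Cx3cl1 UMIs in 130 cells.

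The receptor Cx3cr1 had the highest share of its UMIs in a single class of the 8 genes. Microglia-like cells had 2342 and 2268 CPM without inhibitors and 2430 and 2540 CPM with them, 96.9% ± 0.990 of its UMIs. Macrophage/monocyte-like cells had 685, 403, 869 and 433 CPM, and the unnamed cells 274, 394, 222 and 313 CPM. In neuron-like cells, the next of the tested classes with 74.4 ± 25.3 CPM, Cx3cr1 stood at 3.11% of the microglia-like level and microglia markers at 3.15%, the level of free RNA. The ligand's level in microglia-like cells was 1.93 ± 0.995 CPM.

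Per cell, the receptors were found in most microglia-like cells once depth was made equal. With every cell thinned to 1000 UMIs, a UMI was found in 88.5% ± 1.4 of microglia-like cells for Cx3cr1, 84.9% ± 1.52 for Csf1r and 69.0% ± 0.844 for Tgfbr1 (SD over 4 animals, 2745 cells). Unthinned, the shares were 91.6%, 91.7% and 78.4%. Csf1r was found in 0.842% ± 0.359 of thinned oligodendrocyte-like cells, a class that should lack it (median depths before thinning 1380 UMIs in microglia-like and 2776 in oligodendrocyte-like cells). At least 1 of the 3 receptors was found in 99.2% ± 0.557 of microglia-like cells.

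The lower-level genes were found in fewer cells at that depth. Tgfb1 was found in 32.0% ± 1.78 of microglia-like cells and 11.2% ± 1.10 of endothelial-like cells, and Tgfbr2 in 14.8% ± 0.642 and 18.3% ± 1.82. Il34 was found in 13.6% ± 3.17 of mural-like cells, and Cx3cl1 in 12% ± 4.23 of the 137 neuron-like cells deep enough. Joint detection stood near the product of the separate shares. Csf1r and Cx3cr1 were found together in 75.4% ± 1.35 of them, where the product of their separate shares was 75.1% ± 1.37. For both TGF-β receptor subunits the values were 9.93% ± 0.329 and 10.2% ± 0.555, and for Tgfb1 with Tgfbr1 22.1% ± 1.99 and 22.1% ± 1.24.

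Microglia-like cells formed 3 clusters, led by P2ry12 (1904 cells), Trem2 (699) and Ccl4 (630). Csf1r differed little between them, with pooled levels of 2122, 2042 and 1968 CPM. Cx3cr1 had 2568, 2440, 2653 and 2724 CPM in the P2ry12-led cluster, above every value of the other 2 clusters (pooled 2595 against 1913 and 2209 CPM). Tgfbr1 had 1328, 1216, 1338 and 1383 CPM in the P2ry12-led cluster and 1063, 1066, 989 and 1111 CPM in the Ccl4-led cluster, with no overlap. Csf1 went the other way, with 9.58, 8.05, 2.97 and 9.66 CPM against 17.8, 12.9, 38.9 and 19.6 CPM, on 21 and 23 UMIs. The leading genes of the Ccl4-led cluster included Ccl3, Ccl4, Fos, Junb and Atf3, which the study lists among its dissociation genes. The study also saw rare Ccl4-positive microglia in snap-frozen tissue and took them for a state of the living brain. The cluster held cells of all 4 animals (192 and 179 without inhibitors, 131 and 128 with them). Which of its cells belong to either state was not tested. Clusters are built from these same cells, so these are descriptions.

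The question of the design was whether the inhibitors, which block transcription during dissociation, change what is measured. For these genes no change was called. Calls needed an adjusted p (Benjamini-Hochberg over all genes tested, edgeR quasi-likelihood test) under 0.05 and a log2 fold change beyond 0.58 in either direction, with values given as without over with inhibitors and n = 2 animals per group. In the sum of all cells 0 of 8 genes were called, with 0.0145% of 13750 genes called. In microglia-like cells 0 of 6 tested genes were called, with 0.458% of 8727 genes called, 38 of them higher and 2 lower without inhibitors. None of the 8 and the 6 had an unadjusted p under 0.05, and DESeq2 called none either. In the sum of all cells, fewer cells of a class and less RNA per cell cannot be told apart.

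In microglia-like cells the well-covered genes had narrow intervals. Csf1r had a log2 fold change of 0.03 ± 0.09 (SE), with a 95% interval of -0.15 to 0.21. Cx3cr1 had -0.08 ± 0.09 (-0.26 to 0.10), and Tgfbr1 -0.09 ± 0.09 (-0.27 to 0.10). Each of these intervals lies inside the limits of 0.58 in both directions. The same was true of Tgfb1, at 0.09 ± 0.10 (-0.12 to 0.29), and of Tgfbr2, at -0.05 ± 0.12 (-0.29 to 0.20). Csf1, with 50 UMIs in these cells, had -0.14 ± 0.44 and an interval of -1.02 to 0.73, which does not exclude a change of the size that would be called. Adjusted p over the 6 genes ranged from 0.973 to 0.987 by edgeR.

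By eye, some groups separate. For 3 of the 6 genes, Cx3cr1, Tgfbr1 and Tgfbr2, both microglia-like values with inhibitors lay above both without, but 34.8% of the 8727 genes tested in these cells have groups that do not overlap. In all cells 6 of 8 did not overlap, against 41.0% of 13750 genes.

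In the classes that make the ligands the intervals were wider. Il34 in mural-like cells had a log2 fold change of 0.13 ± 0.28 (-0.44 to 0.70), and Csf1 in oligodendrocyte-like cells -0.07 ± 0.31 (-0.69 to 0.55). Cx3cl1 had -0.67 ± 0.47 in neuron-like cells (-1.60 to 0.25), where both animals with inhibitors were higher, and -0.05 ± 0.24 in endothelial-like cells. The neuron-like interval includes changes past the limit. Tgfb1 had -0.15 ± 0.16 in endothelial-like and -0.18 ± 0.35 in mural-like cells. Tgfbr2 had 0.05 ± 0.13 in endothelial-like cells, -0.20 ± 0.24 in mural-like cells and 0.62 ± 0.34 in ependymal-like cells, the last with an unadjusted p of 0.0859 and an adjusted p of 0.999 by edgeR. Leaving out 1 animal moved that value to between 0.22 and 1.06, the ends being without the first and without the second animal without inhibitors. The neuron-like value of Cx3cl1 moved to between -0.98 and -0.28, the ends being without the second and without the first animal with inhibitors.

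Across these 7 other classes no tested ligand or receptor was called, with no unadjusted p under 0.05. The share of all tested genes called was 0.201% in oligodendrocyte-like, 0.0480% in astrocyte-like, 0.0376% in neuron-like, 0.0364% in endothelial-like, 0.169% in mural-like, 0% in ependymal-like and 5.32% in choroid plexus-like cells. Over all 36 tests of a gene in a class or in all cells, the lowest adjusted p was 0.687.

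**Figure D4:**
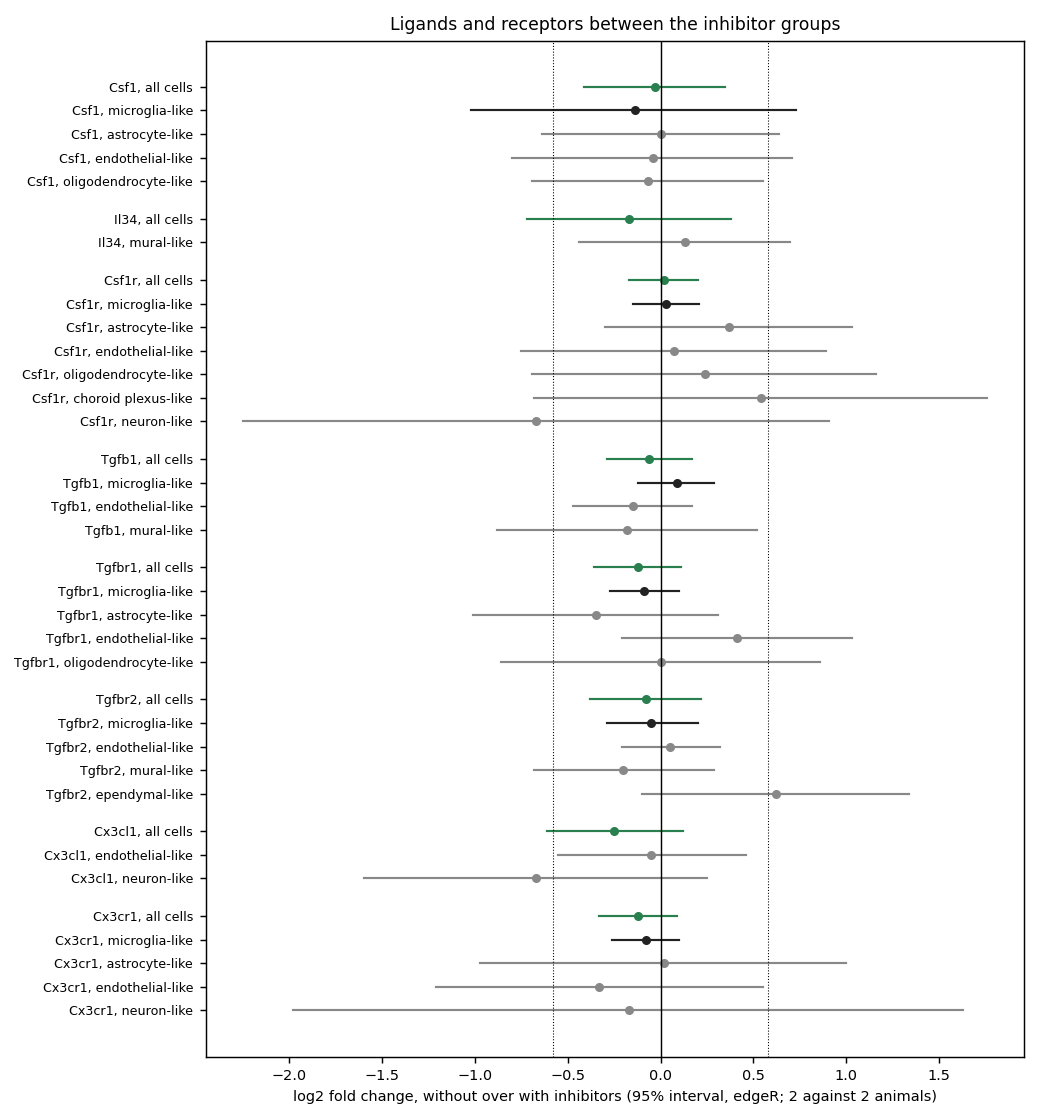
Log2 fold change without over with inhibitors (horizontal axis) for each gene and class tested by edgeR, 2 against 2 animals; lines are 95% intervals, green all cells, black microglia-like, grey other classes, and dotted lines mark the 0.58 limits. Every interval includes 0, and in microglia-like cells all but that of Csf1 lie within the limits.

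Whether the inhibitor effect differed between microglia-like cells and another class was tested for the 19 pairs of a gene and a class in which both could be tested, with the animal as a block. None was called by edgeR, with a lowest unadjusted p of 0.0567 (Tgfbr2 against ependymal-like cells, log2 difference -0.69 ± 0.36) and a lowest adjusted p of 0.900. Of all genes, 0.171% were called against astrocyte-like, 0.359% against endothelial-like, 0.210% against oligodendrocyte-like, 0.868% against choroid plexus-like, 0.174% against mural-like, 0.0586% against neuron-like and 0.0699% against ependymal-like cells.

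The receptors were also compared between microglia-like cells with and without a strong dissociation signature in the animals without inhibitors. Cells were placed above the 99th percentile of the cells with inhibitors, 7 UMIs over 25 activation genes at 1000 UMIs per cell, which took 248 of 640 and 210 of 739 cells without inhibitors. A total of 165 of the 2745 cells lay within 1 UMI of that limit. Csf1r was found in 87.1% of cells above it (exact 95% interval 82.3 to 91.0) and 84.9% of the rest (81.0 to 88.3) in the first animal, and in 84.8% (79.2 to 89.3) and 83.2% (79.7 to 86.3) in the second. The 2 animals disagreed for Cx3cr1, with 90.7% above and 84.7% below in the first and 85.2% and 89.0% in the second. Tgfbr1 was found in 69.4% and 67.6% in the first and 62.9% and 70.5% in the second. The range defined by this score is not a cell type.

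Of the 51 other genes of these pathways that were listed, 40 were tested in microglia-like cells, 2 rose without inhibitors and none fell. Smad7, the inhibitory SMAD of TGF-β signalling, had 125 and 128 CPM without inhibitors and 87.7 and 81.5 CPM with them, or 0.58 ± 0.15 on the log2 scale (adjusted p = 0.0238 by edgeR), just past the limit. Each value without inhibitors lay above each value with them. The groups do not overlap for 34.8% of the 8727 genes tested in these cells, so this adds little to the call.

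The rest of the pathway did not pass in microglia-like cells. Of 15 tested genes of CSF1R signalling, those furthest from 0 were Fyn (-0.47 ± 0.37), Pik3cg (-0.31 ± 0.18) and Grb2 (-0.28 ± 0.13). Among genes that bind or activate TGF-β the extremes were Acvrl1 (0.27 ± 0.38), Furin (-0.26 ± 0.24), a protease that cuts the TGF-β precursor, and Itgav (-0.20 ± 0.16), an integrin subunit that activates the latent form. Tgfbi, a TGF-β-induced matrix protein, had 0.34 ± 0.35, Ptprz1, another IL-34 receptor, 0.19 ± 0.32, and the CX3CR1-linked genes Arrb2, Gnai2 and Gnai3 had -0.17 ± 0.10, -0.16 ± 0.10 and -0.08 ± 0.22. The median over the 40 was -0.03, and over all genes tested in these cells 0.00. In all cells and in the other 7 classes none of the listed genes was called.

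By level, 13 of the 16 CSF1R signalling genes and 2 of the 15 genes that bind or activate TGF-β were highest in microglia-like cells among the tested classes. Those 2 were Nrros, which anchors latent TGF-β1 on microglia (159 ± 7.64 CPM), and the integrin subunit Itgb5 (934 ± 87.8 CPM). The TGF-β co-receptor Eng (596 ± 27.0 CPM) and the type 1 receptor Acvrl1 (461 ± 27.5 CPM) were highest in endothelial-like cells, and Itgb8, whose integrin activates TGF-β, in astrocyte-like cells (186 ± 38.2 CPM). Ptprz1 was highest in astrocyte-like cells (1081 ± 97.3 CPM). These names were chosen after their values were seen.

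The genes with the most similar pattern over the 32 sums of 8 classes and 4 animals were found by Pearson's r of log2(CPM + 10). Among the nearest were C1qa, Ptafr and Ctss for Csf1r (r = 0.985 to 0.982), Irf8, C1qa and Il16 for Cx3cr1 (0.985 to 0.982) and Laptm5 and Cd37 for Tgfbr1 (0.972 and 0.967). Tgfb1 was nearest to Ecscr, Slco2b1 and Ppp1r18 (0.983 to 0.962), and Tgfbr2 to St3gal6, Ctsh and Msn (0.964 to 0.942). For Il34 they were Nrip2, Gucy1b1 and P2ry14 (0.968 to 0.938), for Cx3cl1 Myh10 and Pja2 (0.924 and 0.914), and for Csf1, the most weakly matched, Usp54, Phlpp1 and Pea15a (0.819 to 0.803). Sums of 1 animal share a library, so these values are descriptions.

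For Csf1r and Cx3cr1 the pattern over classes was not shared with their ligands. Csf1r had r = -0.16 with Csf1 and -0.12 with Il34, and Cx3cr1 had -0.15 with Cx3cl1. Tgfb1 differed, with r = 0.77 with Tgfbr1 and 0.73 with Tgfbr2. The 3 receptors of microglia-like cells tracked each other, with 0.97 between Csf1r and Cx3cr1, 0.95 between Cx3cr1 and Tgfbr1 and 0.93 between Csf1r and Tgfbr1.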

How the data were processed

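The authors deposited counts: raw UMI counts per gene and barcode in 1 matrix per library, made with Cell Ranger 3.0.0 on mm10/GRCm38, with no normalization. After a filter of at least 400 genes and at most 20% mitochondrial UMIs, 10067 barcodes stayed. Doublets were scored against 2 simulated doublets per cell, and 0.8% of barcodes per 1000 deposited were removed. Clusters came from 2000 variable genes, 30 principal components, 15 neighbours and the Leiden method at resolution 1 (leidenalg 0.10.2, Python 3.11.15). The 8 genes, the pathway list and the activation lists were left out of clustering. A class needed at least 3 markers. The members, lists and naming limits were chosen with earlier results of these data known.

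UMIs were summed per animal and class and tested with edgeR 4.0.16 (filterByExpr, TMM, glmQLFit, glmQLFTest) in R 4.3.3, tested on simulated data first. DESeq2 1.42.0 was an alternative. Standard errors were the log2 fold change divided by the square root of F. Named genes were the 8 genes everywhere, pathway genes called in any class, the 3 of each pathway with the largest absolute fold change in microglia-like cells, and the 3 nearest patterns per gene among genes with at least 20 CPM in a class. For cell shares, each cell was thinned to 1000 UMIs without use of shallower ones. No 2 libraries agreed within sampling noise (chi-square per degree of freedom over genes 7.24 to 24.3). Libraries shared few barcodes, 9 to 13 of the deposited ones per pair. The replicate numbers in the labels were not stated to pair animals, and deviations from the group means of same-numbered animals correlated at 0.13 (all cells) and 0.03 (microglia-like). On its own strand Cx3cr1 overlaps 3 other counted genes, which had 392 UMIs in all, and none of the other 7 genes has such an overlap. Positions are those of GENCODE M21 on GRCm38. The Poisson intervals of pooled levels and the exact intervals of cell shares cover counting error only. Those of fold changes come from the edgeR standard errors. With 2 animals per group, p-values rest on few degrees of freedom. Protein sequences were not used here. A few genes that these rules name are not reported here.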

Additional observations from a re-analysis of the deposited data

How the results depend on the processing

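Under the alternatives tried (DESeq2, other normalization, filter, cell and doublet limits, clustering resolution, thinning depth and leaving out each animal) no ligand or receptor was called, over 191 fold changes of 16 gene and class pairs, of which 174 kept their direction and 17, none of them called, changed it. Csf1 in astrocyte-like cells, at 0.00, read 0.00 with DESeq2, 0.01 without the count filter and -0.06 to 0.05 when 1 animal was left out. Leaving out 1 animal gave -0.45 to 0.36 for Csf1 in oligodendrocyte-like cells, -0.18 to 0.17 for Cx3cl1 in endothelial-like cells, and in microglia-like cells -0.01 to 0.07 for Csf1r, -0.37 to 0.08 for Csf1 and -0.04 to 0.22 for Tgfb1. In mural-like cells it gave -0.17 to 0.46 for Il34, -0.43 to 0.23 for Tgfb1 and -0.44 to 0.17 for Tgfbr2. Csf1 in microglia-like cells read 0.09 with doublets kept, and Tgfb1 in mural-like cells 0.04 at a clustering resolution of 0.5.

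The class with the highest level stayed for 7 of 8 genes under the stricter cell filter, where Tgfbr2 was highest in mural-like cells, and the class with the highest share of cells for 7 of 8 at 1500 UMIs per cell, where it became neuron-like for Csf1. The cause was not tested. Counts of all genes called moved more, from 2 to between 0 and 164 in all cells and from 40 to between 29 and 62 in microglia-like cells. With the replicate number as a block 0 ligands and receptors were called, Csf1 in astrocyte-like cells read 0.00, and 23 genes were called in all cells. The numbers share no stated pairing. Depth limits Csf1, Il34 and Cx3cl1, at 407, 195 and 444 UMIs in all, and 2 animals per group limit every test.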
